A study of Sus scrofa with 30 samples.

Results

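The net change of the pig conceptus transcriptome between Day 8 and Day 12 after insemination was measured in 20 of the 30 embryos sequenced, the 10 embryos of Day 8 and the 10 embryos of Day 12, over all 13103 genes of the deposited count table. Each day held 5 female and 5 male embryos, and 1 library was prepared from the mRNA of each whole embryo after flushing from the uterus. The 10 embryos of Day 10 were fitted together with them and supplied the course between both ends. The gilts were German Landrace × Pietrain crossbreds whose cycles had been synchronized with altrenogest, PMSG and human chorionic gonadotropin, and a single Pietrain boar sired all embryos. No embryo carried a transgene or received a treatment of its own. Embryos of 4 gilts were collected on each day, and the gilt of an embryo is not given, so day and gilt cannot be told apart and littermates entered the tests as separate embryos.

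During these days the conceptus of the pig grows from a sphere through an ovoid to a long filament before it attaches to the uterus. Its wall is the trophectoderm, the outer epithelium that later forms the placenta, which is lined by the hypoblast, the primitive endoderm of the yolk sac. The epiblast of the embryonic disc gives rise to the body and, at gastrulation, to mesoderm that also spreads between the 2 extraembryonic layers. Trophectoderm cells of the elongating conceptus release estrogens, interleukin 1 beta and interferons, which signal pregnancy to the mother. In RNA of whole embryos, fewer cells of a type and less RNA per cell cannot be told apart, and the same holds for more cells and more RNA.

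Values are CPM, read counts scaled to the size of the library with TMM factors. The edgeR quasi-likelihood test called a gene where its false discovery rate (FDR) was below 0.001 and its log2 fold change exceeded 1 in size. The net log2 change is always Day 12 over Day 8, with a standard error (SE) and the Benjamini-Hochberg adjusted p. The SE was derived as the size of the change over the square root of its F statistic. For changes near 0 it came from the test against the farther 2-fold limit. Total counts of the Day 8 embryos lay between 14882265 and 33799980, those of 9 Day 12 embryos between 15997367 and 34002508. The remaining Day 12 female, d12_f_245, had 6068212 counts. In that library 3 counts, taken as the floor of detection, correspond to 0.434 CPM, against at most 0.194 CPM in the libraries of Day 8. These limits cover counting error only.

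Between Day 8 and Day 12, 4255 of the 13103 genes (32.5%) were called, of which 2887 (22.0% of all genes) were higher and 1368 (10.4%) were lower on Day 12. The median log2 fold change was 0.086 over all genes, 2.21 among those that rose and -1.63 among those that fell. The days did not overlap in any embryo for 2887 of the called genes (22.0% of all genes), 1786 that rose (13.6%) and 1101 that fell (8.40%). A log2 change beyond 4, which is 16-fold, was found in 592 rising and 163 falling genes. In an equivalence test, 6439 genes (49.1%) were within 2-fold of their Day 8 level, and 2409 were neither called nor shown to lie within 2-fold. Genes that rose held between 4.03% and 5.00% of the counts of a Day 8 embryo and between 18.0% and 27.3% of those of a Day 12 embryo. Genes that fell held 19.9% to 21.7% on Day 8 and 5.29% to 7.89% on Day 12. Of the genes that rose, 178 had no more than 3 counts in any single Day 8 embryo, and 41 of these had no count on that day. Of the genes that fell, 54 had no more than 3 counts in any single Day 12 embryo, and the 7 without any count included NODAL, ADTRP, KCNA1, TRPA1 and the unnamed LOC100624109 and LOC106510217.

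The intermediate day divided the net change into courses. The same test called 1845 genes (14.1%) between Days 8 and 10 and 3050 (23.3%) between Days 10 and 12. A gain already called on Day 10 and still called on Day 12 was kept by 866 genes (6.61%), and a loss by 362 genes (2.76%). These were 66.9% of the 1295 genes that had risen and 65.8% of the 550 genes that had fallen up to Day 10. Among the kept gains, 525 showed no further call, 263 rose further after Day 10 and 78 lost part of the gain. Among the kept losses, 265 held, 92 fell further and 5 regained a part, namely ALPK3, GABRD, PHEX, TRIM40 and ZNF296. A net change without a call up to Day 10 but with one afterwards was more frequent, with 1379 late gains (10.5%) and 486 late losses (3.71%). The word late refers to these calls only, as a missing call does not show that a gene was unchanged by Day 10. In 623 genes (4.75%) a gain and in 464 genes (3.54%) a loss was called only over both intervals together. After a call in each interval, in opposite directions, 151 genes (1.15%) were within 2-fold of Day 8 on Day 12, 107 of them back from a peak and 44 back from a trough, while 149 peaks and troughs could be placed neither within nor outside 2-fold. A further 56 genes were higher on Day 10 and lower on Day 12 than on Day 8, and 19 were lower and then higher. The 3 comparisons share embryos, so their calls are not independent of each other.

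**Figure D1:**
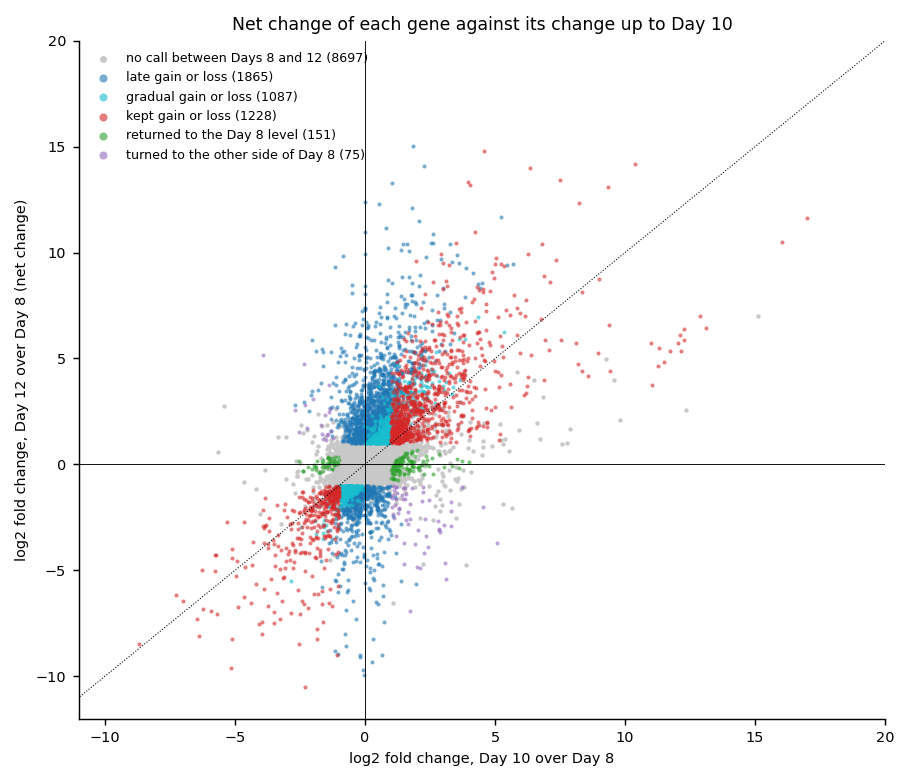
Log2 fold change of each gene from Day 8 to Day 12 (vertical axis, net change) against that from Day 8 to Day 10 (horizontal axis), with 1 point per gene and colours for the course of change. On the dotted line both changes are equal. The 1865 late gains and losses lie mostly near the vertical axis, the 1228 kept gains and losses lie in the upper right and lower left, and the 151 genes that returned lie near the horizontal axis.

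The largest rises and falls named here were taken only from called genes without overlap of Days 8 and 12. Their lack of overlap was thus a condition of the choice. The steepest rises included genes known from trophoblast. PAG6 (chr2:10311350-10386887 in Sscrofa11.1), an aspartic-protease-like pregnancy-associated glycoprotein, ranged from 0 to 0.980 CPM on Day 8 (median 0.0521) and from 853 to 16496 CPM on Day 12 (median 3531). PLET1 (chr9:39936355-39949709), a surface protein of placental progenitors, ranged from 0 to 3.51 CPM on Day 8 (median 0.0712) and from 3745 to 18544 CPM on Day 12 (median 9891). HAND1 (chr16:68679977-68683346), a transcription factor needed in trophoblast and heart, ranged from 0 to 0.464 CPM on Day 8 (median 0) and from 584 to 1852 CPM on Day 12 (median 1064). As the choice required, all Day 12 embryos were above all Day 8 embryos in each of these genes. The net changes were large for PAG6 (net log2 change 15.03, SE 0.74, adjusted p = 2.26e-17), PLET1 (net log2 change 14.79, SE 0.79, adjusted p = 2.07e-16) and HAND1 (net log2 change 14.16, SE 0.60, adjusted p = 6.53e-19). The gains of PLET1 and HAND1 were called by Day 10 and grew afterwards, whereas PAG6 was a late gain. PAG genes are near-identical copies of each other, so reads of one may be counted on another. PPAG3, the other measured member of the family, ranged from 2.39 to 11.8 CPM on Day 8 (median 3.88) and from 72.5 to 302 CPM on Day 12 (median 175), without overlap, and was a late gain too (net log2 change 5.19, SE 0.38, adjusted p = 2.03e-13).

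CTBS (chr6:129173399-129207868), a lysosomal chitobiase, ranged from 0.0548 to 0.980 CPM on Day 8 (median 0.216) and from 851 to 4983 CPM on Day 12 (median 3097) and was a kept gain that rose further (net log2 change 13.43, SE 0.48, adjusted p = 1.33e-20). ATP10B, a lipid flippase, ranged from 0 to 0.0823 CPM on Day 8 (median 0) and from 27.9 to 523 CPM on Day 12 (median 275.2) (net log2 change 13.32, SE 0.61, adjusted p = 5.22e-18). FUT9, a fucosyltransferase of Lewis x glycans whose gene is on an unplaced scaffold, had 2 counts over all Day 8 embryos and ranged from 43.4 to 579 CPM on Day 12 (median 198). Its ratio was 31901-fold (95% counting interval 8831 to 263420.0), and its gain was late (adjusted p = 1.6e-19). In all of these genes the lowest Day 12 embryo lay above the highest Day 8 embryo, again by the rule of choice. WNT4, a WNT ligand of female reproductive tissues, had 2 counts on Day 8 and ranged from 41.6 to 212 CPM on Day 12 (median 119), which is 14448-fold (95% counting interval 3999 to 119311). With 1 count each on Day 8, the gene of the parathyroid hormone-related peptide PTHLH reached 12.4 to 35.9 CPM on Day 12 (median 18.7) and the leptin gene LEP reached 15.2 to 54.3 CPM on Day 12 (median 24.5). TGM3, an epidermal transglutaminase, had no count on Day 8 and was at least 2232-fold higher on Day 12, measured against 3 counts over all Day 8 embryos. The 12 steepest rises also included IFNG, IFN-DELTA-1, CYP19A1 and GPR183, an oxysterol-sensing receptor with 1 count on Day 8 and 32.3 ± 36.7 CPM (mean ± SD, n = 10) on Day 12. Below these 12, the largest kept gains included the transcription factor IRX4 (net log2 change 9.92, SE 0.62, adjusted p = 7.26e-15) and the anion transporter SLC26A9 (net log2 change 9.91, SE 0.48, adjusted p = 2.15e-17). Late gains included LYPD6, a modulator of WNT signalling (net log2 change 11.17, SE 0.46, adjusted p = 3.1e-19), and the transporter-like MFSD4A (net log2 change 10.40, SE 0.64, adjusted p = 4.48e-15).

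Of the 12 largest falls, also taken from genes without overlap of Days 8 and 12, 8 were late. SLC10A1 (chr7:93400037-93421989), the sodium-dependent bile acid transporter, ranged from 312 to 507 CPM on Day 8 (median 378), from 359 to 746 CPM on Day 10 (median 428) and from 0.269 to 1.74 CPM on Day 12 (median 0.478). Day 10 thus still overlapped Day 8, and on Day 12 all embryos were lower (net log2 change -9.33, SE 0.23, adjusted p = 1.97e-24). The same late course was seen for PHOSPHO1, a phosphatase of phosphocholine (net log2 change -9.005, SE 0.25, adjusted p = 2.22e-23), ENPP3, an ectonucleotidase (net log2 change -8.98, SE 0.27, adjusted p = 1.76e-22), and ACSL6, an acyl-CoA synthetase (net log2 change -8.22, SE 0.25, adjusted p = 2.43e-22). FYB, an adaptor of immune cell signalling, fell from a mean of 55.2 ± 7.67 to 0.0736 ± 0.131 CPM (net log2 change -9.96, SE 0.49, adjusted p = 2.93e-17). RASGRP1, an activator of RAS, fell from 110.4 ± 19.7 to 0.275 ± 0.283 CPM, and XPNPEP2, a membrane aminopeptidase, from 30.3 ± 13.5 to 0.0556 ± 0.0459 CPM. MIOX, which opens the ring of inositol, kept 3 counts over the 10 embryos of Day 12, against 15.9 ± 4.97 CPM on Day 8. Late losses outside this leading group included RNASE12, the water and glycerol channel AQP9, the acid amidase NAAA, the zinc exporter SLC30A2 and GM2A, the activator protein of ganglioside breakdown. GM2A ranged from 4748 to 5569.9 CPM on Day 8 (median 5296), from 7502 to 9360.1 CPM on Day 10 (median 8601) and from 39.7 to 165 CPM on Day 12 (median 64.4), so that its net loss followed a rise (net log2 change -6.19, SE 0.19, adjusted p = 1.76e-22).

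Other losses were called by Day 10. GULO, the last enzyme of vitamin C synthesis, ranged from 59.2 to 245.3 CPM on Day 8 (median 92.0), from 0 to 0.639 CPM on Day 10 (median 0.181) and from 0 to 0.530 CPM on Day 12 (median 0.251). The Day 10 and Day 12 embryos overlapped and all were below those of Day 8 (net log2 change -8.50, SE 0.39, adjusted p = 4.09e-18). CASS4, a focal adhesion adaptor, held its loss in the same way (net log2 change -8.13, SE 0.46, adjusted p = 6.96e-16). PYGM, a glycogen phosphorylase (net log2 change -8.48, SE 0.53, adjusted p = 6.13e-15), UPP1, a uridine phosphorylase (net log2 change -7.76, SE 0.41, adjusted p = 1.28e-16), the tyrosine kinase BTK (net log2 change -7.44, SE 0.47, adjusted p = 9.01e-15), CEMIP, which takes part in hyaluronan breakdown (net log2 change -7.53, SE 0.59, adjusted p = 1.17e-12), and the ubiquitin ligases TRIM31 (net log2 change -7.03, SE 0.57, adjusted p = 2.65e-12) and TRIM50 (net log2 change -6.77, SE 0.32, adjusted p = 8.46e-18) fell up to Day 10 and again thereafter.

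The 30 gene lists drawn up for lineages and pathways held 626 measured genes, of which 343 were called. Lists share members, and 24 of the called genes are in 2 or more lists. The lists are set against 22.0% of all genes called higher and 10.4% called lower. As the table had been filtered by CPM, members near the floor on Day 8 could enter it only through embryos with more. Shares of rising members in lists with such genes are therefore shaped by the filter. Listed genes without a match may have been removed by it. The lists were chosen for their known roles in this tissue and with earlier results of these data known, so their shares describe the lists and were not tested against chance.

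**Figure D2:**
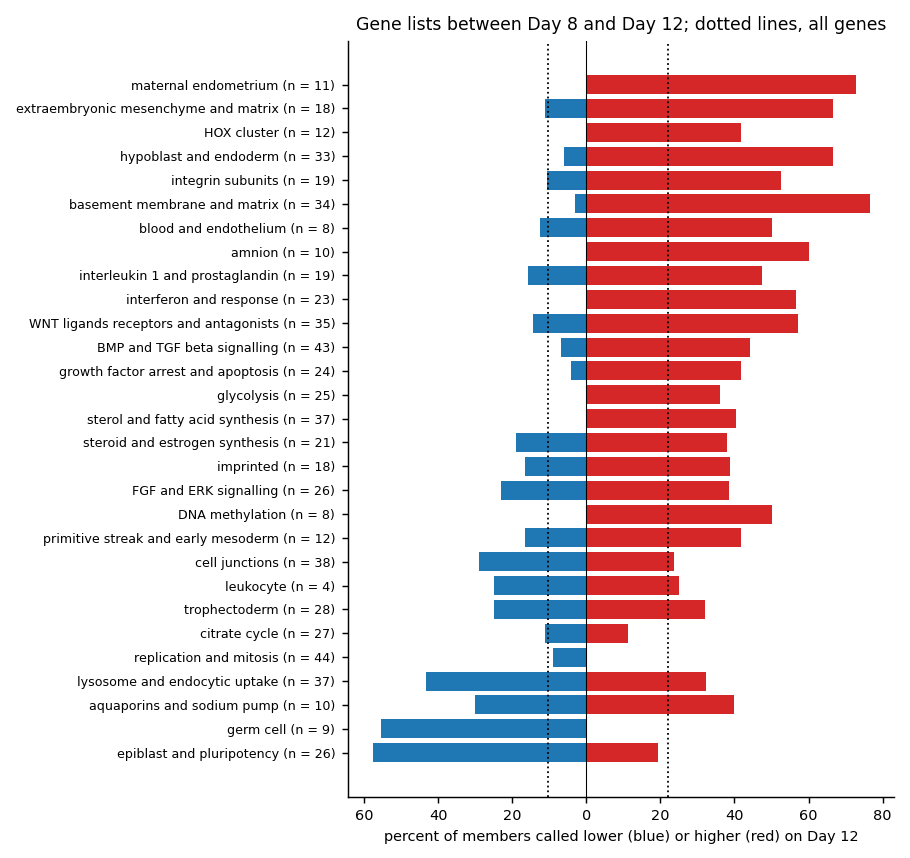
Percent of the measured members of each gene list that were called higher (red, to the right) or lower (blue, to the left) on Day 12 than on Day 8, with the number of measured members beside the name of each list of at least 4 measured members. The dotted lines mark 22.0% and 10.4%, the shares of all genes. The basement membrane and maternal endometrium lists have the longest bars to the right and the epiblast and germ cell lists the longest to the left.

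Among epiblast and pluripotency genes, 5 of the 26 measured members rose and 15 fell (median log2 fold change -1.55). The core factors were low on Day 12. POU5F1 (chr7:23564654-23570691), which maintains pluripotency, ranged from 22.5 to 39.5 CPM on Day 8 (median 31.5), from 10.6 to 20.6 CPM on Day 10 (median 13.7) and from 0.611 to 4.05 CPM on Day 12 (median 1.54). NANOG ranged from 1.97 to 6.01 CPM on Day 8 (median 3.65) and from 0 to 0.143 CPM on Day 12 (median 0.0499), and SOX2 from 0.409 to 1.65 CPM on Day 8 (median 0.822) and from 0 to 0.0387 CPM on Day 12 (median 0). No embryo of Day 12 reached the level of any Day 8 embryo for these 3 factors. POU5F1 was a kept loss that fell further (net log2 change -4.25, SE 0.24, adjusted p = 9.22e-16) and NANOG a late loss (net log2 change -6.04, SE 0.37, adjusted p = 3.29e-15). SOX2 had 2 counts over all Day 12 embryos and was 97.3-fold (95% counting interval 26.6 to 809) higher on Day 8 (adjusted p = 1.15e-12). NODAL, a ligand that patterns the epiblast, ranged from 1.746 to 4.47 CPM on Day 8 (median 2.61), had no count on Day 12 and was at least 212-fold lower there. PRDM14, a repressor in naive and germ cells, had 3 counts on Day 12, and OTX2 (-6.70) and GDF3 (-4.68) fell by the log2 fold changes given.

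Among called genes with a name other than LOC, at least 5 CPM on Day 8 and no overlap of the days, the largest fall was in ESRRB (chr7:99511135-99699478), an orphan nuclear receptor of both naive pluripotency and trophoblast stem cells. It ranged from 289.02 to 402 CPM on Day 8 (median 350.3), from 23.4 to 158 CPM on Day 10 (median 67.4) and from 0 to 0.929 CPM on Day 12 (median 0.103). Each day lay below the one before without overlap (net log2 change -10.51, SE 0.47, adjusted p = 2.52e-18). Further factors kept part of their level on Day 12, among them TBX3 (-2.79), UTF1 (-2.21), SALL4 (-1.42) and DPPA2 (-2.16). Members of the list also rose, at a share of 19.2%, near the 22.0% of all genes. DPPA5, an RNA-binding protein known from pluripotent cells, ranged from 2.73 to 5.81 CPM on Day 8 (median 3.54), from 24.5 to 678 CPM on Day 10 (median 96.0) and from 277 to 1220.0 CPM on Day 12 (median 399), with all Day 12 embryos above all Day 8 embryos (net log2 change 7.03, SE 0.56, adjusted p = 1.6e-12). TDGF1, the coreceptor of NODAL, peaked on Day 10 and kept part of its gain (net log2 change 2.69, SE 0.23, adjusted p = 1.38e-11). The other rises were those of DNMT3B (1.37), CDH2 (1.32) and ETV4 (1.54). The summed level of the list lay between 1527 and 1707 CPM on Day 8 and between 1329 and 2116 CPM on Day 12. Of 9 measured germ cell genes 5 fell and none rose, the largest loss being that of PIWIL2 (net log2 change -3.14, SE 0.33, adjusted p = 6.42e-10), followed by the receptor KIT (net log2 change -2.95, SE 0.36, adjusted p = 1.7e-08).

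Trophectoderm genes divided into 2 directions, in that 9 of the 28 measured members rose and 7 fell (median log2 fold change 0.22), and 11 were within 2-fold of Day 8. Besides PLET1 and HAND1, the epithelial stem cell factor TP63 (chr13:127115990-127347082) ranged from 0 to 0.137 CPM on Day 8 (median 0.0235) and from 28.9 to 145 CPM on Day 12 (median 73.2) (net log2 change 10.44, SE 0.47, adjusted p = 2.75e-18). GRHL2 (2.33), the keratin KRT19 (1.89), MSX2 (1.15), KRT7 (1.27) and ELF5 (1.39) also rose, as did GATA3 by little more than the limit (1.05). The GATA3 call was lost without d12_f_245 (0.947) or d12_f_271 (0.962) and that of ELF5 without d12_f_289 (adjusted p = 0.00135). Of the 7 members that fell, ASCL2, a progenitor factor, ranged from 16.0 to 40.9 CPM on Day 8 (median 27.1), from 20.4 to 36.4 CPM on Day 10 (median 31.6) and from 0 to 4.02 CPM on Day 12 (median 0.203). It thus overlapped between Days 8 and 10 and dropped afterwards in all embryos (net log2 change -5.10, SE 0.48, adjusted p = 7.79e-11). EOMES was a late loss as well (net log2 change -5.86, SE 0.38, adjusted p = 1.72e-14). ESRRG, a nuclear receptor of placental metabolism, ranged from 21.2 to 47.3 CPM on Day 8 (median 35.2), from 0.617 to 8.63 CPM on Day 10 (median 3.25) and from 0 to 0.723 CPM on Day 12 (median 0.155) and fell in both intervals (net log2 change -7.30, SE 0.47, adjusted p = 1.39e-14). KLF5 (-2.002), TEAD4 (-1.57), KRT18 (-1.49) and CDX2 (-1.09) fell less. CDX2, which specifies the trophectoderm, ranged from 148 to 181 CPM on Day 8 (median 173) and from 45.3 to 186 CPM on Day 12 (median 65.7), and here the days overlapped. The factors that stayed within 2-fold of Day 8 were GATA2, TFAP2A, TFAP2C, TEAD1, TEAD3, ELF3, DLX3, OVOL1, GRHL1 and ETS2, with log2 fold changes between -0.33 and 0.65.

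Of the hypoblast and endoderm genes, 22 of the 33 measured members rose and 2 fell (median log2 fold change 1.99), and 16 of the rises were late. Matrix genes are part of this list, and its LAMA1, LAMB1, COL4A1 and COL4A2 are counted again among the basement membrane chains. RBP4, the retinol carrier, ranged from 0 to 0.548 CPM on Day 8 (median 0.121) and from 112 to 434 CPM on Day 12 (median 212) (net log2 change 10.39, SE 0.63, adjusted p = 3.17e-15). FOXA1, a pioneer factor of endoderm, ranged from 0.0469 to 0.572 CPM on Day 8 (median 0.237) and from 6.12 to 18.8 CPM on Day 12 (median 12.9) (net log2 change 5.45, SE 0.30, adjusted p = 3.64e-16), and EPAS1, a hypoxia-inducible factor, from 3.18 to 20.4 CPM on Day 8 (median 6.75) and from 109.2 to 466 CPM on Day 12 (median 391) (net log2 change 5.40, SE 0.36, adjusted p = 2.45e-14). The Day 12 embryos were above those of Day 8 throughout for these genes. FOXA3 (4.38), HNF4A (2.08) and the receptor PDGFRA (1.99) rose late, together with the plasma proteins FETUB (6.94), APOE (2.71) and APOA1 (2.001). SERPINA1 had no count on Day 8 and was at least 392-fold higher on Day 12. FOXA2 stood at the limit (1.002), and its call was lost without any 1 of 12 embryos (log2 change 0.848 to 0.9996), which were d08_f_105, d08_f_124, d08_f_129, d08_f_130, d08_m_103, d08_m_133, d08_m_136, d12_f_245, d12_f_297, d12_f_299, d12_m_249 and d12_m_275. The GATA factors of the hypoblast behaved differently from these. GATA6 ranged from 127 to 161 CPM on Day 8 (median 139), from 48.1 to 61.5 CPM on Day 10 (median 57.1) and from 25.2 to 70.6 CPM on Day 12 (median 43.9), was lower on Day 12 in every embryo (net log2 change -1.68, SE 0.15, adjusted p = 1.21e-11) and held the loss from Day 10. GATA4 ranged from 30.4 to 63.1 CPM on Day 8 (median 36.6) and from 31.5 to 127 CPM on Day 12 (median 70.4), with overlap, and was neither called nor within 2-fold (net log2 change 0.87). SOX17 was not called either (0.81). RSPO3, a WNT agonist, fell (net log2 change -4.05, SE 0.47, adjusted p = 4.94e-09).

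**Figure D3:**
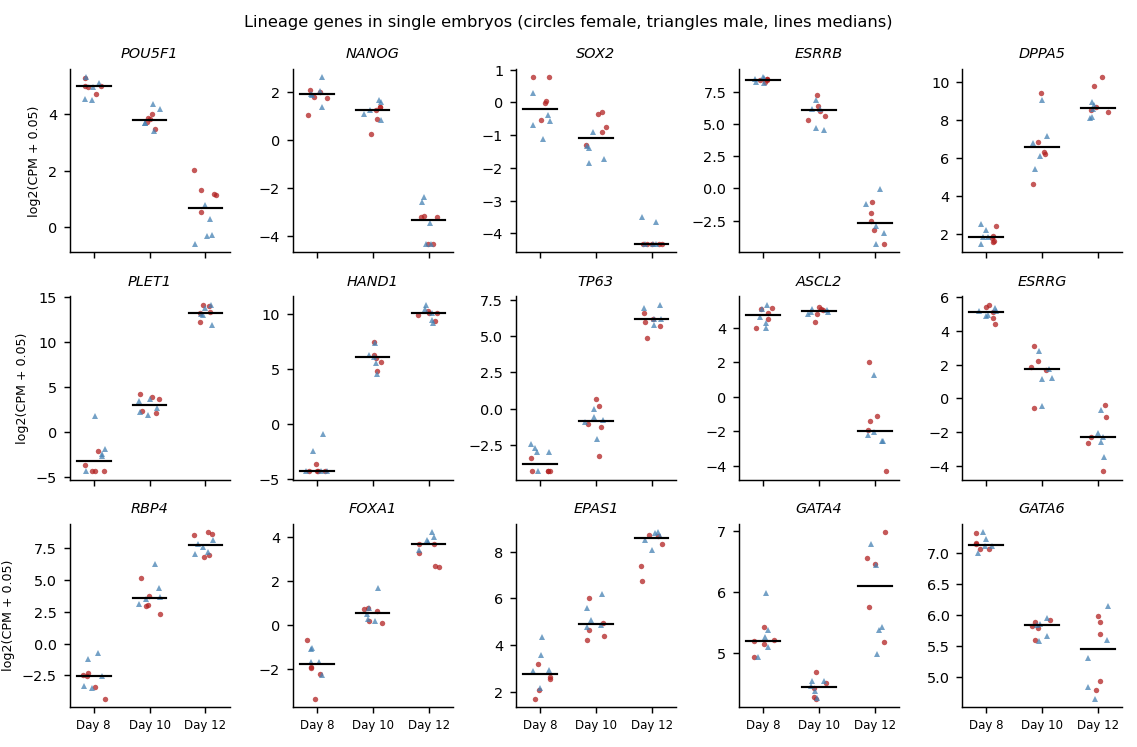
Log2(CPM + 0.05) of lineage genes in single embryos by day, with circles for female embryos, triangles for male embryos and lines for medians (n = 10 a day). POU5F1, NANOG, SOX2, ESRRB, ASCL2 and ESRRG end far below Day 8, DPPA5, PLET1, HAND1, TP63, RBP4, FOXA1 and EPAS1 far above it, GATA6 is lower and GATA4 overlaps.

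Extraembryonic mesenchyme and its matrix were represented by 18 measured genes, and 12 of the 18 measured members rose and 2 fell (median log2 fold change 2.80). NR2F2, an orphan receptor of mesenchyme and differentiating trophoblast, ranged from 0.129 to 0.587 CPM on Day 8 (median 0.315) and from 16.5 to 43.8 CPM on Day 12 (median 35.1) (net log2 change 6.57, SE 0.28, adjusted p = 1.16e-18). THY1 (6.52), IGF1 (4.41), IGFBP5 (4.22), the smooth muscle protein TAGLN (3.95) and VIM (2.60) rose as well. POSTN and ACTA2, each with 1 count on Day 8, reached 3.87 ± 1.37 and 0.914 ± 0.406 CPM. FSTL1 (-1.06) and COL5A1 (-1.45) fell, and the loss of FSTL1 was no longer called without d08_f_130 (-0.964), d12_f_271 (-0.954) or d12_m_249 (-0.987). The collagens COL1A1, COL1A2 and COL3A1, which define fibroblasts, were sought but matched no gene of the count table by symbol or synonym. For the primitive streak and early mesoderm, 12 of 35 listed genes were measured, of which 5 rose and 2 fell. The rises included DKK1 (4.20), LEF1 (4.14), BMP4 (3.69) and WNT5A (1.73), and the falls were in LHX1 (-4.20) and SNAI1 (-1.78). The gene of brachyury, the factor that marks the streak, was near the floor at both ends and was not called. MIXL1, MESP1 and FOXF1 were sought but matched no gene of the count table either. Of 10 amnion genes 6 rose, led by the GABA receptor subunit GABRP (net log2 change 7.12, SE 0.63, adjusted p = 1.9e-11) and the immune checkpoint protein VTCN1 (net log2 change 5.77, SE 0.78, adjusted p = 1.02e-07). Of 8 blood and endothelial genes 4 rose, including TIE1 (2.25) and PECAM1 (1.84), and HHEX fell (-3.04), with 2 genes lower when d12_f_245 was left out. GATA1, the erythroid factor, had no count on Day 8, 1.44 ± 0.852 CPM on Day 12 and was at least 100.1-fold higher.

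Basement membrane and matrix genes had the largest share of rising members of the lists with at least 4 measured members, 76.5%. In the list 26 of the 34 measured members rose and 1 fell (median log2 fold change 1.81), and 19 of the rises were late. The fit of male embryos alone called 17 rises. Collagen IV and laminin chains form the sheet on which epithelia rest, and 10 of 11 measured chains rose, with a median log2 fold change of 1.92. LAMA1, LAMB1, COL4A1 and COL4A2 among them are also in the hypoblast list, so the 2 results are not separate. LAMA3, a laminin chain of stable epithelial adhesion, ranged from 0 to 12.2 CPM on Day 8 (median 0.286) and from 40.2 to 611 CPM on Day 12 (median 167) and was a late gain without overlap (net log2 change 7.01, SE 0.74, adjusted p = 7.85e-10). COL4A1 rose by 1.92, LAMB1 by 1.93 and LAMA1 by 1.69 on the log2 scale, and LAMB2 was not called (-0.85). The protease inhibitors TIMP1 (4.23) and TIMP2 (3.42) and the metalloproteinases MMP15 (3.88) and MMP14 (2.24) rose side by side. The only fall was that of SERPINE2 (-1.32), an inhibitor of plasmin generation. HSPG2, the heparan sulfate proteoglycan perlecan, fell up to Day 10 and returned to the Day 8 level (293 ± 46.4, 114 ± 27.0 and 317.5 ± 115 CPM on Days 8, 10 and 12). Among integrins, the receptors for this matrix, 10 of the 19 measured members rose and 2 fell (median log2 fold change 1.82). The share that fell, 10.5%, was near the 10.4% of all genes. ITGB2 (6.59), ITGB6 (5.04), ITGA3 (4.20) and ITGA6 (2.40) were among the gains, and ITGA10 (-2.36) and ITGA9 (-1.58) fell.

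In the cell junction list 9 of the 38 measured members rose (23.7%) and 11 fell (28.9%). The share that rose was near the 22.0% of all genes. The kinds of contact differed. Of 10 desmosome genes, whose products anchor keratin filaments between cells, 8 fell, none rose and 2, JUP and DSC3, were within 2-fold (median log2 fold change -1.51). DSP, the desmosomal linker desmoplakin, ranged from 1060.0 to 1425 CPM on Day 8 (median 1261) and from 148 to 342 CPM on Day 12 (median 281) (net log2 change -2.16, SE 0.11, adjusted p = 7.09e-17). PKP1, a plakophilin, ranged from 61.4 to 191 CPM on Day 8 (median 142) and from 0.820 to 24.9 CPM on Day 12 (median 6.86) (net log2 change -4.17, SE 0.39, adjusted p = 7.28e-11). Both fell without overlap of the days. The cadherins DSG3 (-3.90) and DSC1 (-3.78) fell below Day 8 after a rise on Day 10. By contrast, 5 of 8 claudins of the tight junction rose and 1 fell. CLDN3 ranged from 0.0309 to 0.768 CPM on Day 8 (median 0.139) and from 76.8 to 280.3 CPM on Day 12 (median 143) (net log2 change 9.38, SE 0.59, adjusted p = 8.96e-15), CLDN6 rose by 2.53 and CLDN8 changed by -2.08 on the log2 scale. The gap junction protein GJA1 ranged from 7.50 to 19.7 CPM on Day 8 (median 11.9) and from 371 to 1410.0 CPM on Day 12 (median 782) and was a late gain (net log2 change 6.15, SE 0.25, adjusted p = 4.11e-19), and GJB1 rose too (2.31). Of the 5 measured gap junction genes, these 2 rose, 1 fell and 2 were within 2-fold. All 4 adherens junction genes, CDH1 and the catenins CTNNB1, CTNNA1 and CTNND1, were within 2-fold.

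Lysosomal and endocytic genes changed in both directions. Here 12 of the 37 measured members rose and 16 fell (median log2 fold change -0.42), so that 43.2% were lower, against 10.4% of all genes. PSAP, the precursor of the saposins, ranged from 7162 to 10839 CPM on Day 8 (median 8225) and from 324 to 525 CPM on Day 12 (median 382) (net log2 change -4.36, SE 0.12, adjusted p = 2.84e-23). NPC1, a cholesterol transporter of the lysosome, ranged from 434 to 716 CPM on Day 8 (median 579) and from 7.02 to 36.4 CPM on Day 12 (median 26.0) (net log2 change -4.60, SE 0.22, adjusted p = 1.24e-17). Its partner NPC2 fell as well (-3.52). IGF2R, the receptor that sorts lysosomal enzymes and clears IGF2, ranged from 410.4 to 639 CPM on Day 8 (median 546) and from 9.26 to 57.2 CPM on Day 12 (median 50.7) (net log2 change -3.55, SE 0.23, adjusted p = 1.61e-14). In these genes no Day 12 embryo reached the range of Day 8. The protease LGMN (-2.60) and the endocytic receptor LRP2 (-2.03) fell in addition. Of 11 cathepsins, in contrast, 7 rose and 2 fell, CTSD (-1.198) and CTSC (-1.53). CTSL, a cysteine protease secreted by trophoblast, ranged from 147 to 306 CPM on Day 8 (median 170.4) and from 1053 to 12690.5 CPM on Day 12 (median 4689) (net log2 change 4.83, SE 0.31, adjusted p = 1.24e-14). CTSB (2.50), the sorting receptor SORT1 (4.03) and MANBA (2.79) rose. The summed level of the list was 24057 to 31025 CPM on Day 8 and 8101 to 22727 CPM on Day 12. Of the 10 measured genes for water channels and the sodium pump, 4 rose and 3 fell. AQP9 ranged from 4.85 to 13.1 CPM on Day 8 (median 7.19) and from 0 to 0.235 CPM on Day 12 (median 0) (net log2 change -7.44, SE 0.43, adjusted p = 1.51e-15), AQP5 rose (4.64), and the pump subunit ATP1B3 fell (-2.19) while ATP1B1 rose (4.36).

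**Figure D4:**
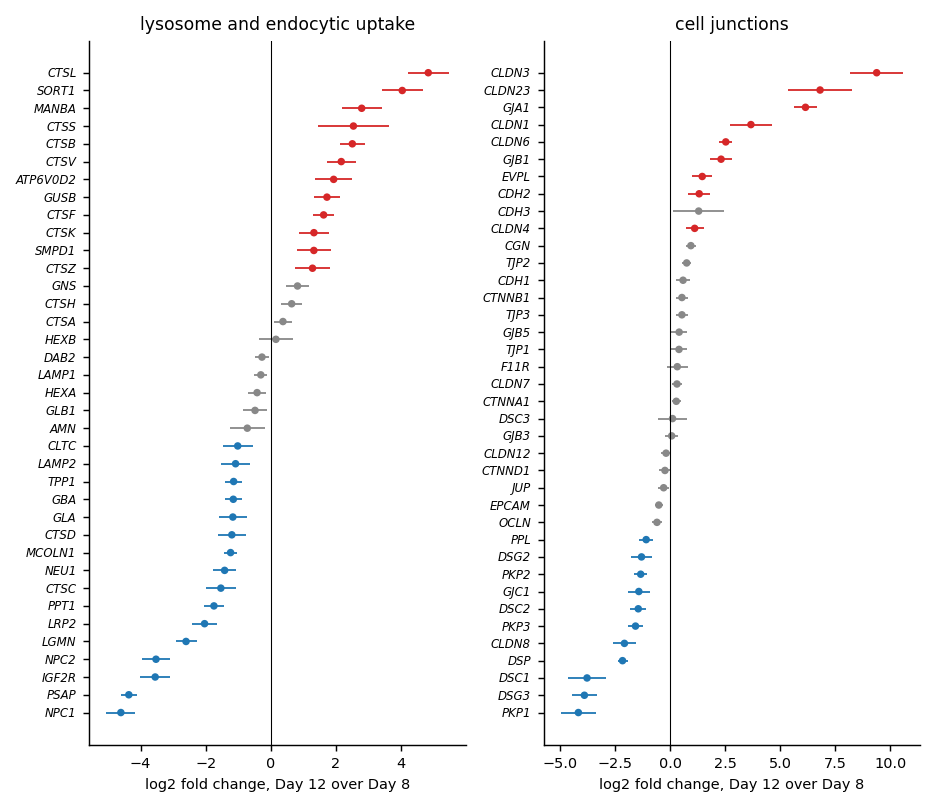
Log2 fold change from Day 8 to Day 12 of each measured gene of the lysosome list (left) and the cell junction list (right). Each point has a 95% interval derived from its SE. Red genes were called higher, blue genes lower and grey genes were not called. Saposin and NPC genes stand at one end of the left panel with cathepsins at the other, and desmosome genes at one end of the right panel with claudins and GJA1 at the other.

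Genes of estrogen synthesis included gains that were kept only in part. In the steroid list 8 of the 21 measured members rose and 4 fell (median log2 fold change 0.62), and 5 of the rises were kept gains. The fit of male embryos alone called 4 rises. CYP19A1 (aromatase, which makes estrogens from androgens) ranged from 0 to 0.103 CPM on Day 8 (median 0), from 179.9 to 4009.8 CPM on Day 10 (median 1509) and from 6.54 to 89.1 CPM on Day 12 (median 49.2). Day 12 was thus far under Day 10, but every Day 12 embryo was above every Day 8 embryo. With 2 counts on Day 8, the ratio of Day 12 to Day 8 was 5573-fold (95% counting interval 1542 to 46027). CYP17A1, which makes androgens from progestagens, ranged from 0.149 to 1.39 CPM on Day 8 (median 0.635), from 456 to 14224 CPM on Day 10 (median 3878) and from 28.0 to 179.7 CPM on Day 12 (median 78.7) and kept a gain (net log2 change 7.01, SE 0.58, adjusted p = 4.07e-12). The copies CYP19A2, without a count on Day 8 and at least 648-fold higher on Day 12, and CYP19A3 (4.41) share sequence with CYP19A1 and cannot be counted apart with certainty. HSD17B1 kept little of its peak (net log2 change 1.15, SE 0.24, adjusted p = 7.8e-05). STAR, which moves cholesterol into mitochondria, ranged from 5.76 to 17.5 CPM on Day 8 (median 9.48), from 78.7 to 1406 CPM on Day 10 (median 263) and from 7.78 to 28.0 CPM on Day 12 (median 16.1), and CYP11A1, which cleaves its side chain, had 232 ± 34.3, 1146 ± 505 and 387 ± 129.9 CPM on the 3 days. Neither was called between Day 8 and Day 12 nor shown to be within 2-fold. POR and CYB5A, the electron donors of these enzymes, returned to the Day 8 level. HSD3B1, with no count on Days 8 and 10, was at least 466-fold higher on Day 12, and the sulfotransferase SULT2A1 at least 267-fold. STS, a sulfatase that frees sulfated steroids, was a late loss (net log2 change -4.44, SE 0.17, adjusted p = 1.03e-19).

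Interleukin 1 beta followed the same course. IL1B2, the copy expressed by pig conceptuses, ranged from 0.237 to 6.77 CPM on Day 8 (median 1.76), from 3637 to 22012 CPM on Day 10 (median 11084) and from 33.4 to 235 CPM on Day 12 (median 80.5) and was still above Day 8 in all embryos (net log2 change 5.36, SE 0.48, adjusted p = 2.59e-11). IL1B, whose sequence is nearly the same, was not called. In the list of interleukin 1 and prostaglandin genes, 9 of the 19 measured members rose and 3 fell (median log2 fold change 1.68). PPARG, a lipid-activated nuclear receptor, rose (net log2 change 7.22, SE 0.48, adjusted p = 2.51e-14), as did the prostaglandin F receptor PTGFR (net log2 change 5.40, SE 0.59, adjusted p = 1.86e-09), and the prostaglandin E synthase PTGES fell (net log2 change -2.75, SE 0.26, adjusted p = 5.91e-11). Over the 78 genes that kept part of a gain, the share of the counts was 0.0721% to 0.121% in Day 8 embryos, 2.95% to 13.8% in Day 10 embryos and 0.358% to 0.551% in Day 12 embryos.

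Interferon genes came up mostly at the end. IFNG (chr5:32477906-32482670), the type II interferon of the pig trophoblast, ranged from 0 to 2.73 CPM on Day 8 (median 0.278), from 19.5 to 93.8 CPM on Day 10 (median 42.7) and from 1112 to 19216 CPM on Day 12 (median 9020.0). The 3 days did not overlap (net log2 change 13.97, SE 0.72, adjusted p = 7.37e-17). IFN-DELTA-1, a short type I interferon, had no count on Days 8 and 10 and ranged from 6.94 to 87.4 CPM on Day 12 (median 21.3), so that it was at least 2456-fold higher. Reads of type I interferon copies may be shared among them. Of interferon genes, receptors and responders, 13 of the 23 measured members rose and 0 fell (median log2 fold change 1.62), and 9 rises were late. The fit of male embryos alone called 5 rises. ISG15 (5.57), IRF2 (4.88), the receptor chain IFNGR2 (4.38) and MX1 (3.43) rose, at mean levels of 1.196 to 4.39 CPM on Day 12. OAS2, STAT2, IRF3 and IFNAR1 stayed within 2-fold, and OAS1, IFIT1 and IFIT2 were neither called nor within 2-fold.

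The genes that returned differed in function. POR, the cytochrome P450 reductase (chr3:10212734-10272184), ranged from 49.2 to 65.6 CPM on Day 8 (median 56.2), from 194 to 1852 CPM on Day 10 (median 839) and from 49.5 to 76.9 CPM on Day 12 (median 55.7). Its Day 12 embryos overlapped those of Day 8, all were below Day 10, and the net log2 fold change was 0.09 (SE 0.25). PDPN, a membrane mucin of motile cells, ranged from 167 to 493 CPM on Day 8 (median 211), from 679 to 7757 CPM on Day 10 (median 2473) and from 102.8 to 587 CPM on Day 12 (median 263) (net log2 change 0.16). RASGRF1, PLAC9 and UNC93A were the next largest peaks, with means of 2.45, 17.1 and 2.09 CPM on Day 8, 29.9, 201 and 21.5 CPM on Day 10, and 2.17, 20.2 and 2.05 CPM on Day 12. The keratin KRT8, the factor ETS2, the adaptor DAB2 and the elongase ELOVL6 were list members that came back from a peak. In the opposite direction, AMOT, a scaffold of the Hippo pathway in polarised epithelia, ranged from 217 to 404 CPM on Day 8 (median 305), from 40.4 to 93.7 CPM on Day 10 (median 66.8) and from 149 to 388 CPM on Day 12 (median 274). BAMBI, a decoy receptor of BMP and TGF beta, ranged from 12.2 to 25.9 CPM on Day 8 (median 19.1), from 2.27 to 4.79 CPM on Day 10 (median 3.19) and from 3.06 to 61.1 CPM on Day 12 (median 15.1), with a wide spread on Day 12. Both dipped on Day 10 and were within 2-fold of Day 8 on Day 12. SRM, which makes spermidine, SOWAHC and the amino acid transporter SLC7A6 were the remaining large troughs, with net log2 fold changes of -0.31, -0.32 and -0.20. The 151 genes held 2.21% to 2.60% of the counts on Day 8, 3.92% to 5.39% on Day 10 and 1.80% to 2.74% on Day 12.

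Genes that crossed the Day 8 level were fewer. KCNQ1, a potassium channel subunit of epithelia, ranged from 13.1 to 17.5 CPM on Day 8 (median 15.6), from 36.9 to 72.8 CPM on Day 10 (median 51.8) and from 0 to 0.240 CPM on Day 12 (median 0.0990), without overlap between any of the days, and ended as a loss (net log2 change -6.95, SE 0.19, adjusted p = 2.84e-23). PRAP1 (net log2 change -4.85, SE 0.46, adjusted p = 6.85e-11) and the germline glycolytic enzyme GAPDHS (net log2 change -4.65, SE 0.45, adjusted p = 1.13e-10) took the same course, as did the growth factor EREG (-1.09), DUSP6 (-1.45) and the WNT antagonist SFRP1 (-3.21). In the other direction NR5A2, a nuclear receptor of pluripotency and steroidogenesis, ranged from 0.686 to 2.13 CPM on Day 8 (median 1.33), from 0.257 to 0.782 CPM on Day 10 (median 0.490) and from 2.94 to 28.6 CPM on Day 12 (median 18.8), and its gain on Day 12 held in every embryo (net log2 change 3.77, SE 0.31, adjusted p = 5.14e-12). DAB1 (4.75), SEMA5A (3.08), ARHGAP28 (2.79) and FHDC1 (2.61), which act in cell guidance or on the cytoskeleton, also dipped before they gained.

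**Figure D5:**
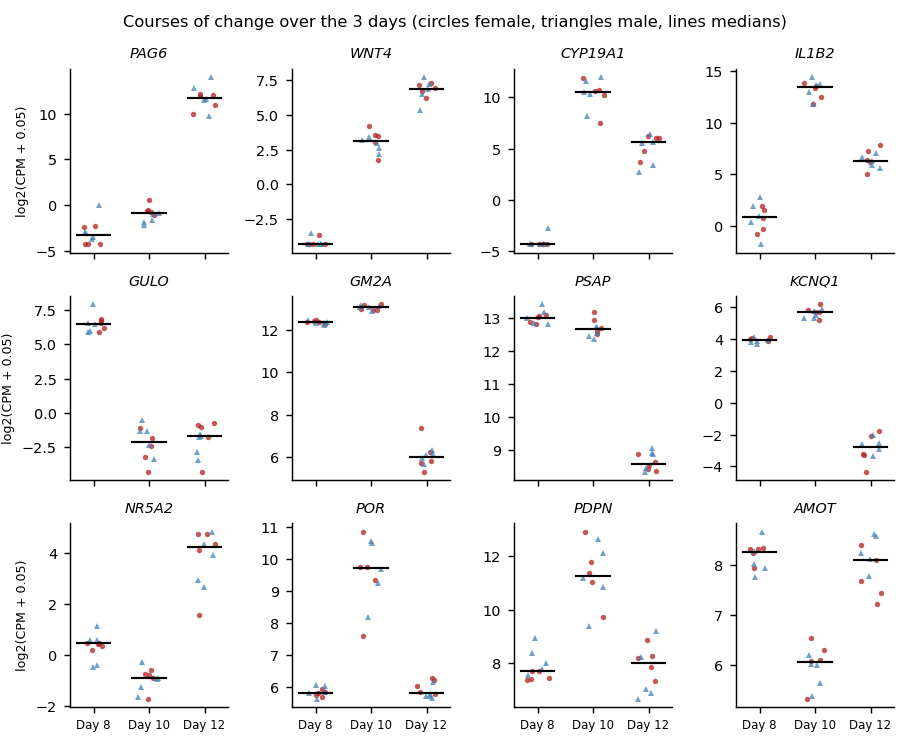
Log2(CPM + 0.05) in single embryos by day for genes of each course, with circles for female embryos, triangles for male embryos and lines for medians (n = 10 a day). PAG6 gained late, WNT4 kept and extended a gain, CYP19A1 and IL1B2 kept part of one, GULO kept a loss, GM2A and PSAP lost late, KCNQ1 and NR5A2 crossed the Day 8 level, and POR, PDPN and AMOT returned to it.

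Signalling genes were read by role. Among WNT ligands, receptors and antagonists, 20 of the 35 measured members rose and 5 fell (median log2 fold change 1.54). The ligands WNT4, WNT7B, WNT2B (3.86) and WNT7A (2.86), the agonist RSPO1 (6.14) and the receptors FZD5 (3.11) and FZD1 (3.04) rose, and so did the antagonist DKK1. LGR5 (1.08 to 2.72 CPM on Day 8 (median 1.99)), a target and receptor of the pathway, kept 2 counts over all Day 12 embryos, and the feedback gene AXIN2 was at 27.4 ± 3.71 CPM on Day 8 and 6.68 ± 3.36 CPM on Day 12 (net log2 change -2.02, SE 0.20, adjusted p = 1.47e-10). For BMP and TGF beta, 19 of the 43 measured members rose and 3 fell (median log2 fold change 0.99). The ligand GDF6 ranged from 0 to 0.264 CPM on Day 8 (median 0.0988) and from 25.3 to 99.7 CPM on Day 12 (median 58.4) (net log2 change 9.09, SE 0.37, adjusted p = 2.25e-19). The activin subunit INHBB (7.02), the receptor BMPR1B (4.98), the transducer SMAD1 (4.13), TGFB1 (3.80) and the target genes ID1 (2.59) and ID2 (2.47) rose, whereas NODAL, GDF3 and FSTL1 fell. In the FGF and ERK list, 10 of the 26 measured members rose and 6 fell (median log2 fold change 0.48). The ligands FGF10 (6.18) and FGF7 (5.89) and the receptor FGFR2 (4.77) rose. The feedback inhibitors SPRY1 (-2.45), SPRY2 (-2.28) and SPRY4 (-2.37) and DUSP6 fell.

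Glycolysis and sterol synthesis had rises without falls, while most replication genes were within 2-fold. Of 25 glycolysis genes 9 rose and none fell, led by the enolase ENO3 (net log2 change 4.64, SE 0.32, adjusted p = 6.8e-14), with LDHA (1.66), PKM (1.39) and the lactate transporter SLC16A1 (1.88). In the citrate cycle 20 of 27 genes were within 2-fold, 3 rose and 3 fell, among them PC (3.27) and SUCLG2 (3.56) as gains and SUCLA2 (-1.94) and IDH3A (-1.68) as losses. The 2 succinyl-CoA synthetase beta chains, ATP-forming SUCLA2 and GTP-forming SUCLG2, thus changed in opposite directions. Among sterol and fatty acid genes 15 of the 37 measured members rose and none fell (median log2 fold change 0.81), and 10 of the rises were kept from Day 10. TM7SF2 (5.58), CYP51 (2.29) and SREBF2 (1.77), the regulator of the pathway, were among them or among the late gains. Of 44 replication and mitosis genes 30 were within 2-fold, none rose and 4 fell, CCNE2 (-1.46), CCNE1 (-1.41), CCNA2 (-1.37) and GINS1 (-1.27). The share that fell, 9.09%, was near the 10.4% of all genes. In the arrest and apoptosis list 10 of the 24 measured members rose and 1 fell (median log2 fold change 0.96). BMF (5.09), CDKN1A (4.76) and FAS (4.75) rose most, and BCL2L1, an inhibitor of apoptosis, fell just past the limit (-1.03) and was not called without d08_f_105, d12_f_289, d12_f_299, d12_m_276 or d12_m_286 (-0.997 to -0.977). The fit of female embryos alone called 13 replication genes lower, and the fit without d12_m_307 called 7 replication genes and 1 sterol gene lower.

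Of 8 genes of DNA methylation and its removal 4 rose and none fell, namely TET3 (3.29), UHRF1 (1.62), DNMT3B and TET1 (1.24). Among 18 imprinted genes 7 rose and 3 fell. PEG10, a retroviral-like gene of the placenta (net log2 change 4.42, SE 0.30, adjusted p = 5.05e-14), its neighbour SGCE (4.14) and IGF2 (2.26) rose, while IGF2R and ASCL2 fell. Of 38 listed HOX genes 12 were measured, of which 5 rose and none fell, led by HOXC13 (net log2 change 5.53, SE 0.54, adjusted p = 1.78e-10). The table had been filtered by CPM, so a gene near the floor on Day 8 could enter it only through embryos with more. These counts are therefore shaped by the filter. Higher were 8 under the robust GLM or when d08_m_103 was left out, 9 under DESeq2, and 2 in the fit of male embryos alone or at a mean of at least 1 CPM. HOXA9 and HOXA10 rose from near the floor to 1.09 ± 1.55 and 1.53 ± 1.77 CPM.

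The embryos were flushed from the uterus, and genes of maternal cells were therefore listed too. Of 18 listed endometrial genes 11 were measured, of which 8 rose and none fell (median log2 fold change 3.59). Their summed level was 1.32 to 8.34 CPM in Day 8 embryos and 27.5 to 99.4 CPM in Day 12 embryos. With levels this low on Day 8, the CPM filter favoured members that rose, so these counts are shaped by it. The fit of male embryos alone called 4 rises. UABP-2, a uteroferrin-associated protein, had no count on Day 8 and ranged from 3.01 to 18.5 CPM on Day 12 (median 5.16). MUC4 (8.27), MUC1 (4.76) and WFDC2 (4.36) rose as well. The other measured members were ESR1, OVGP1, ACP5, FOXJ1, PIGR, HOXA10 and SPP1. Some genes of the list, such as HOXA10 and SPP1, are also expressed by embryos. PGR and PAX8, which define the endometrium, were sought but matched no gene of the count table by symbol or synonym. In a table filtered by CPM, a missing match does not show that a gene was absent. Of 20 leukocyte genes 4 were measured, of which AIF1 rose and FCER1G fell, with summed levels of 45.3 to 67.6 CPM on Day 8 and 78.9 to 161 CPM on Day 12. AIF1, a protein of macrophages that is also found in other cells, ranged from 0.422 to 3.38 CPM on Day 8 (median 0.979) and from 37.6 to 127 CPM on Day 12 (median 45.4) (net log2 change 5.65, SE 0.38, adjusted p = 2.92e-14). The neutrophil proteins S100A8 and S100A9, named as late gains, ranged from 0.309 to 66.3 CPM on Day 12 (median 0.686) and from 4.12 to 247 CPM on Day 12 (median 12.5), each with a wide spread. PTPRC and CD68 were sought but matched no gene of the count table either. The part of maternal or blood cells in any gain was not tested.

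The net change was in the same direction in female and male embryos for all 4255 called genes. The calls were made on the same embryos of both sexes together. This agreement therefore followed largely from the choice of genes and was no test of the sexes. A test of the difference between the sexes in the edgeR quasi-likelihood fit of 6 groups called 0 genes at an FDR under 0.05, with a lowest FDR of 0.127, although 2863 genes (21.8%) had an unadjusted p under 0.05. The small library, d12_f_245, belongs to the female group, and its part in these p-values was not tested.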

How the data were processed

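RNA of single pig embryos was sequenced on Days 8, 10 and 12, with 5 female and 5 male embryos a day. The authors trimmed the reads, mapped them in Galaxy to assembly 11.1 of the pig with its NCBI annotation and filtered genes by a CPM cutoff whose value, like the aligner and counter, is not given in the sources used here. What the authors deposited, and what was used here, are unnormalized counts of reads for each NCBI identifier, in 1 table of 13103 genes and 30 embryos. Gene symbols and positions came from the RefSeq gene table of Sscrofa11.1, which matched all 13103 identifiers. The tables of single days and edgeR results of the authors were not used.

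Counts were fitted with edgeR 4.0.16 in R 4.3.3 (TMM factors, robust quasi-likelihood F test, default prior count) with 3 day groups and without a term for sex, and p-values were adjusted by Benjamini and Hochberg over all genes. The study used edgeR's robust GLM, which was run as an alternative next to DESeq2 1.42.0. Genes were within 2-fold of Day 8 where 2 one-sided quasi-likelihood tests against 2-fold in each direction passed an FDR of 0.05. The 10 embryos of a day came from at most 4 gilts, so some were littermates, but all entered the fit as independent. The p-values therefore measure the spread between embryos, not between gilts, and may be too small. How many of the 4 gilts of a day gave the sequenced embryos is not given. For genes with 0 counts on a day, the fold is a bound against 3 counts over all 10 embryos of that day. With 1 to 3 counts it is the ratio of pooled counts with an exact 95% interval, which covers counting error only. In 2 runs of simulated data for Day 12 against Day 8, with 200 changed genes among 13103 in each run, the test called 96.2% of genes raised and 90.0% of genes lowered by a log2 of 2, 32.5% and 33.8% of those moved by exactly 1, and 2 of 25806 unchanged genes. Of the unchanged genes 89.8% passed as within 2-fold, and of those moved by exactly 1, 5.00% and 7.50% did. The simulated embryos were drawn independently, without an effect of gilt or litter. These shares therefore do not give the error rates of the real design.

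Members and gene lists were chosen with earlier results of these data known. Genes named are the 12 largest rises and the 12 largest falls among called genes without overlap of the days and with a symbol other than LOC and a mean of at least 5 CPM on the higher day, the 6 further largest kept gains, kept losses, late gains and late losses, the 5 largest returns from a peak and from a trough and the 5 largest crossings each way, the 4 largest changes each way in every list at a mean of at least 2 CPM, and the transcription factors of the first 4 lists. Other named members of lists and counts were chosen after their values were seen. Some genes that the rule selects are not reported here. Alternatives were other tests, size factors, filters, margins and thresholds, sex as a term, each sex alone and leaving out each of 20 embryos. Promoter motifs were planned but not searched, as no sequences were at hand.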

Additional observations from a re-analysis of the deposited data

Results flagged for a closer look

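Among the 10 embryos of a day, single values were checked with Dixon's ratio, the gap to the nearest embryo over the range of the day, on the scale of log2(CPM + 0.5), or log2 for total counts. Of 108 checks 11 exceeded the 95% critical value, and chance alone marks about 1 group in 20. The Day 12 female d12_f_245 accounted for 7 of them. Its total of 6068212 counts lay below the 15997367 to 34002508 of the other embryos of its day (ratio 0.562). In the same embryo, IFNG (1112 CPM against 4629 to 19216, ratio 0.50), CTBS (851 against 2621 to 4983, ratio 0.637), ATP10B (27.9 against 112.8 to 523, ratio 0.475) and DSP (148 against 231 to 342, ratio 0.532) were the lowest. GM2A was the highest there (165 against 39.7 to 79.6 CPM, ratio 0.512), and the summed level of the epiblast list the lowest (1329 against 1674 to 2116 CPM, ratio 0.496). Without this embryo the 5 genes were still called in the same direction.

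The other marked values came from different embryos. PTHLH was highest in the Day 12 male d12_m_307 (35.9 against 12.4 to 21.6 CPM, ratio 0.483). On Day 8, GATA4 was highest in the male d08_m_121 (63.1 against 30.4 to 42.7 CPM, ratio 0.535), CTSL in the female d08_f_105 (306 against 147 to 198 CPM, ratio 0.599) and GULO in the male d08_m_111 (245.3 against 59.2 to 118 CPM, ratio 0.514).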

How the results depend on the processing

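The 4255 genes called between Day 8 and Day 12 became 2403 (1734 higher, 669 lower) in a test for changes beyond 2-fold itself, and 9606 (5248 higher, 4358 lower) at an FDR under 0.05 without a fold limit. Over the other tests, size factors, filters, single sexes and the fit of Days 8 and 12 alone, the count stayed within 1.5 times, from 3048 in male embryos to 4464 with the robust GLM. Genes that keep a gain or a loss numbered 1228, and 612 in female as in male embryos alone. The 151 genes that return numbered 41 within 1.5-fold, 250 within 3-fold, 74 in female and 89 in male embryos alone. Fewer embryos entered each single-sex fit. Gradual losses were 464, and 832 in female embryos alone, and late gains 1379, and 880 in male embryos alone. Genes that crossed from a loss to a gain were 19, but 41 with the robust GLM, 29 with DESeq2 and 34 with library size alone, where troughs that returned were 72 rather than 44. The cause was not tested.

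Leaving out 1 embryo at a time gave 4147 to 4348 called genes (2829 to 2923 higher and 1317 to 1428 lower), 1158 to 1304 that keep a change, 140 to 159 that return and 337 to 348 called list members. No named gene that was called changed direction under the alternatives run, but 12 named genes that were not called changed sign under at least 1, among them BAMBI with the robust GLM (-0.148, against 0.176), PDPN (-0.268, against 0.157), POR (-0.067, against 0.091) and AMOT (0.1248, against -0.1253) in male embryos alone. Of 246 named genes, 16 lost their call in female and 26 in male embryos alone, and GATA3, FOXA2 or BCL2L1 under the robust GLM, sex as a term, library size alone or a prior count of 5. The smaller prior count that was planned is the default already used. Library size alone moved the median of all genes from 0.086 to 0.102. Called members of lists moved by over 1.5 times as follows. Higher HOX genes were 5, but 8 with the robust GLM, 9 with DESeq2, and 2 at a mean of at least 1 CPM or in male embryos alone. Lower genes of blood and endothelium and of arrest and apoptosis were 1 each, but 2 each with the robust GLM, and with library size alone 0 of arrest and apoptosis. At a mean of at least 1 CPM, higher blood and endothelium genes were 2 (from 4) and lower ones 0 (from 1), lower germ cell genes 3 (from 5) and lower streak genes 1 (from 2). In female embryos alone, lower genes were 13 (from 4) for replication, 3 (from 6) for FGF and ERK, 3 (from 5) for germ cells, 1 (from 2) for mesenchyme, 0 (from 1) for blood and endothelium, 2 (from 0) for sterols and 1 (from 0) each for glycolysis and DNA methylation, and higher ones 6 (from 10) for integrins and 5 (from 9) for interleukin 1 and prostaglandin. In male embryos alone, higher genes were 17 (from 26) for the basement membrane, 5 (from 13) for interferon, 5 (from 10) for FGF and ERK, 4 (from 8) each for endometrium and steroids and 3 (from 5) for the streak, and lower ones 3 (from 6) for FGF and ERK, 3 (from 5) for germ cells, 1 (from 2) for integrins, 0 (from 2) for mesenchyme and 0 (from 1) for arrest and apoptosis. No paired analysis was possible because the days share no replicate numbers. Depth limits low genes most in d12_f_245, where 3 counts are 0.434 CPM.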
